A study of Mus musculus with 15 samples.

Results

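The 47 genes described here encode the enzymes and lipid droplet proteins of glycerolipid and phospholipid metabolism. They were taken by symbol from a list set by known function, with earlier results of these data known. All 47 were found among the 55487 mouse genes of the deposited tables. The transcript counts came from erythroid progenitors of the fetal liver of 129S6/SvEvTac mouse embryos of stage E12.5. Group 1 of mice gave 3 wildtype and 3 Rpl5 mutant libraries, with the molecule labelled as polyA RNA. Group 2 gave 3 wildtype, 3 mutant and 3 low-yield mutant libraries, with the molecule labelled as total RNA. The deposited sample table writes the mutant genotype of group 2 as Rpl5plusSkax23Jus and that of group 1 only as M, and the labels do not define low-yield. The labels name no treatment, do not say how the progenitors were isolated, and do not say whether a library came from 1 embryo or a pool, so p-values measure only the spread between these libraries.

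Glycerolipids are built by esterifying glycerol 3-phosphate with fatty acids in successive steps, which gives lysophosphatidic acid and then phosphatidic acid. Phosphatidic acid is dephosphorylated by lipins to diacylglycerol, which becomes triglyceride or takes up a choline or ethanolamine head group, or it is activated with CDP on the way to phosphatidylinositol and cardiolipin. Phospholipids are then remodelled by acyltransferases that refill a lysophospholipid, and triglyceride stored in droplets is released by lipases. A red cell precursor makes membrane for its divisions and later loses organelles and membrane as it matures.

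Rpl5, the ribosomal protein gene mutated here, was measured at 656 to 745 CPM (the count relative to a library's scaled total) in the wildtype libraries of group 1 and at 521 to 570.4 CPM in its mutants. In group 2 the ranges were 303 to 374 CPM in wildtype, 232 to 248 CPM in mutants and 219 to 278 CPM in low-yield mutants, with no overlap with wildtype. Library totals were 48510828 to 58513669 counts in group 1 and 24954324 to 44827821 counts in group 2. The 15 erythroid marker genes were all detected; 12 passed as lower in group 1 mutants, 5 in group 2 mutants and 9 in low-yield mutants, and their summed level was lower in every mutant library: 3636 to 3871 CPM against 5449 to 6448 CPM in group 1, and 4205 to 5204 CPM over both mutant classes of group 2 against 5964 to 9253 CPM. The 14 granulocyte markers summed to 17.8 to 39.4 CPM in wildtype, 149 to 240 CPM in mutant and 184 to 406 CPM in low-yield mutant libraries of group 2, and overlapped between genotypes in group 1 (109.8 to 832 CPM and 283 to 1567 CPM). Of 13 tested in group 2, 9 passed as higher in mutants and 13 in low-yield mutants (median log2 fold changes of 2.7 and 3.5), and 0 of 14 passed in group 1 (0 also at an unadjusted p under 0.05). The 15 hepatocyte markers summed to 37.7 to 70.1 CPM in wildtype and 8.49 to 25.2 CPM in mutant libraries of group 1, where 4 of 13 tested passed as lower, and overlapped in group 2 (12.9 to 93.9, 11.99 to 58.5 and 51.8 to 57.7 CPM). In group 2 the 12 macrophage markers summed to 1.20 to 4.63 CPM in wildtype, 2.49 to 9.77 CPM in mutants and 7.40 to 10.5 CPM in low-yield mutants, so that the low-yield mutants lay clear of wildtype. The 10 megakaryocyte and mast cell markers summed to 39.1 to 44.3, 40.4 to 45.9 and 57.8 to 58.4 CPM there, again with low-yield mutants clear of wildtype, and the 10 endothelial and mesenchymal markers to 1.3 to 2.54, 3.85 to 5.98 and 6.64 to 11.2 CPM, with both mutant classes clear of it. In low-yield mutants 1 of 5 macrophage markers tested passed as higher, 3 of 6 megakaryocyte and mast cell markers as higher and 1 as lower, and 3 of 4 endothelial and mesenchymal markers as higher. In group 2 mutants 1 of 5, 1 of 6 and 1 of 4 passed in the same order, all as higher. In group 1 these 3 sums overlapped between the genotypes, at 7.46 to 80.7, 28.3 to 51.8 and 2.49 to 9.67 CPM over its 6 libraries. There 1 of 8 megakaryocyte and mast cell markers tested passed as lower, and 0 of 5 and 0 of 3 of the other lists passed. Apoc3, Timd4 and Fcer1a, of the hepatocyte, macrophage and mast cell markers, were at 0 in all 15 libraries. The part of these lists in the results on the members was not tested, and in bulk RNA fewer cells of a type and less RNA per cell cannot be told apart. Wildtype replicates 1 and 2 of group 1 held both Xist (525 and 865 CPM) and the Y-linked Ddx3y (49.3 and 29.9 CPM), whereas each of the other 13 libraries held either Xist at 1029 to 1409 CPM with Ddx3y at 0, or Ddx3y at 36.7 to 88.2 CPM with Xist at 2.50 to 19.5 CPM.

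Of the 47 genes, 40 passed the filter on low counts in every fit. The other 7 were Gpat3 and Mogat1, which had 0 counts in all 15 libraries, and Mogat2, Etnk2, Cds1, Pnpla3 and Plin5. In group 1, 11 of the 40 members passed the test (27.5%; adjusted p under 0.05, edgeR quasi-likelihood test), 3 higher and 8 lower in mutants, against 12.6% of all 14048 genes tested (5.79% higher and 6.78% lower). In group 2 mutants 4 members passed (10%), 2 in each direction, against 6.27% of 15024 genes (3.32% higher and 2.95% lower). In low-yield mutants 10 passed (25%), 5 higher and 5 lower, against 1884 of 15024 genes (6.68% higher and 5.86% lower). The fit over both groups of mice, which shares its libraries with the group 1 and group 2 mutant comparisons, called 15 (37.5%), 4 higher and 11 lower, against 19.6% of 15954 genes (9.80% in each direction). Group 2 mutants and low-yield mutants were set against the same 3 wildtype libraries. The median log2 fold change of the members stayed near 0 in each: 0.0073 in group 1, -0.051 in group 2 mutants, -0.032 in low-yield mutants and -0.0041 over both groups, beside medians over all genes of 0.0075, -0.0096, -0.0035 and -0.00070. In group 1, members of the acylation arm (Agpat2 and Agpat3 higher, Gpat2 lower) passed in opposite directions, as the plot of fold changes by arm shows. So did members of the remodelling arm (Lpcat4 higher, Lpcat1 lower).

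**Figure D1:**
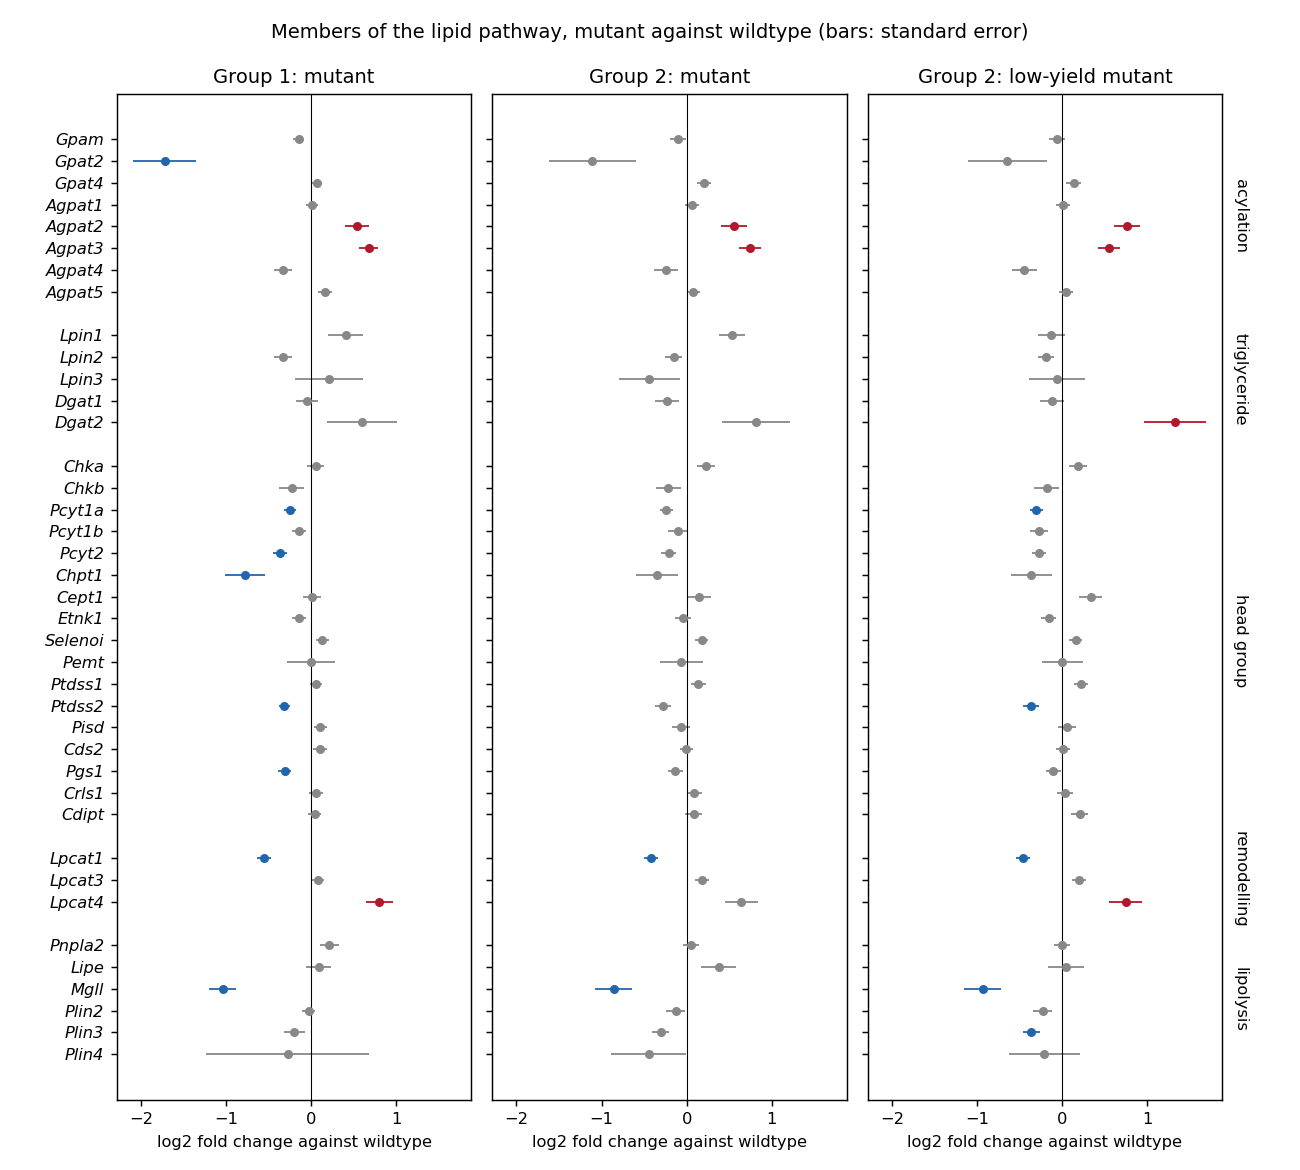
Log2 fold change against wildtype (x axis) of 39 of the 40 members tested, by arm (rows), in group 1 mutants, group 2 mutants and group 2 low-yield mutants (3 libraries each against 3 wildtype). Points are fitted values, bars standard errors, red and blue points passed the test as higher and lower, and gray points did not; Lpcat2 is left out because all 3 wildtype libraries of group 2 had 0 counts. Agpat2, Agpat3, Lpcat1 and Mgll are coloured in all 3 panels.

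Agpat2, Agpat3, Lpcat1 and Mgll passed in all 4 comparisons, the first 2 higher and the last 2 lower in mutants, as did 3.84% of the 16114 genes tested in any of them. In all, 17 members passed in at least 1 comparison, against 22.6% of those genes, and none passed with opposite signs. DESeq2 called 13 members in group 1 (16.4% of all genes), 8 in group 2 mutants (9.67%), 12 in low-yield mutants (15.3%) and 17 over both groups (22%). The 11 members called in group 1 all had the same sign in group 2 mutants, which have their own wildtype libraries, as did 98.4% of the 1751 genes called in group 1 and tested in both. Libraries of the genotypes did not overlap for 16 of 40 members in group 1 (31.6% of all genes), for 15 in group 2 mutants (23.2%) and for 20 in low-yield mutants (29.9%). The group 1 count fell from 11 to 6 without wildtype replicate 2 or 3 and to 4 without mutant replicate 3. With the replicate number as a block it was 13, with Agpat4 and Lpin2 added, against 20.4% of all genes. The group 2 mutant count fell from 4 to 2 without wildtype replicate 3 or mutant replicate 1, 2 or 3. The low-yield count fell from 10 to 4 without wildtype replicate 2 or 3 (in the latter fit 3 of the 10 with Cept1 added) or low-yield replicate 2, and to 2 without low-yield replicate 1.

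In wildtype progenitors the levels of the 47 members spanned from 0 to that of Lpcat1. Per kilobase of exon (RPKM, so that genes can be compared), the highest level in the acylation arm was that of Agpat1, at 27.2 ± 1.33 in group 1 and 41.6 ± 3.09 in group 2 (SD, n = 3). Lpin2 led the triglyceride arm at 9.95 ± 1.11 and 8.79 ± 0.571 RPKM. Ptdss2 led the head group arm at 24.4 ± 0.313 and 26.5 ± 0.940 RPKM, with Crls1 and Cdipt less than 1 SD (the larger of each pair) below it in each group. Lpcat1, in the remodelling arm, was the highest of all 47 at 34.3 ± 1.64 and 47.2 ± 0.875 RPKM. Plin2, in the lipolysis and droplet arm, stood at 27.7 ± 2.97 RPKM in group 1, where it could not be separated from Agpat1 by the spread of 3 libraries, and at 31.4 ± 3.33 RPKM in group 2, below Agpat1. In group 1, 13 members were at or above 10 RPKM, 21 lay between 1 and 10 and 13 under 1, and in group 2 the numbers were 15, 20 and 12. The low members included the monoacylglycerol acyltransferases Mogat1 and Mogat2, the lipase Pnpla3, and the droplet proteins Plin4 and Plin5, which are known mainly from other tissues such as gut, liver, fat and heart. Of the diacylglycerol acyltransferases, which make triglyceride, Dgat1 transcripts (3.64 ± 0.419 and 4.13 ± 0.395 RPKM) exceeded those of Dgat2 (0.366 ± 0.227 and 0.271 ± 0.0640 RPKM).

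**Figure D2:**
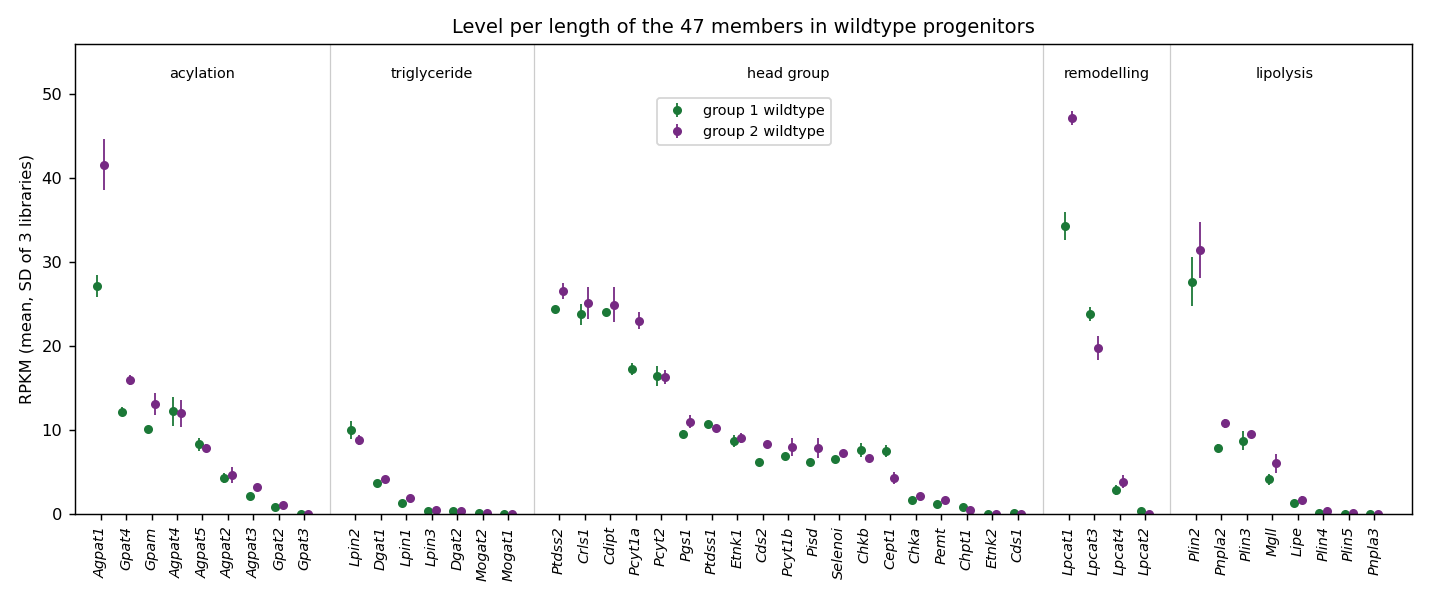
RPKM (y axis, mean and SD of 3 libraries) of the 47 members in wildtype progenitors of group 1 and group 2, ordered by level within each arm. Lpcat1 is the highest point in each group, and Agpat1, Plin2, Ptdss2 and Lpin2 lead the other arms.

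In the acylation arm 2 of 8 members tested rose and 1 fell in group 1 (5.79% of all genes rose and 6.78% fell), and Agpat1, the most abundant, did not pass. Agpat3 (ENSMUSG00000001211, chr10:78269178-78352489, minus strand, GRCm38 with GENCODE M21), an acyltransferase that turns lysophosphatidic acid into phosphatidic acid, gave 17.8, 15.2 and 17.4 CPM in wildtype and 27.4, 24.00 and 29.1 CPM in mutant libraries of group 1. The wildtype libraries of group 2 read 23.3, 22.7 and 27.02 CPM, its mutants 40.5, 33.1 and 48.6 CPM and its low-yield mutants 37.1, 35.9 and 34.4 CPM. Every mutant library lay above every wildtype library of its group. Its log2 fold change was 0.67 ± 0.11 (SE, adjusted p = 0.00242) in group 1 and 0.74 ± 0.13 (SE, adjusted p = 0.00377) in group 2 mutants. In low-yield mutants Agpat3 had 0.55 ± 0.13 (SE, adjusted p = 0.0116), and over both groups 0.71 ± 0.093 (SE, adjusted p = 2.05e-05). The Agpat3 call was lost in low-yield mutants without group 2 wildtype replicate 2 (adjusted p = 0.063) or low-yield mutant replicate 1 (adjusted p = 0.0545).

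Agpat2 (ENSMUSG00000026922, chr2:26593057-26604417, minus strand), the isoenzyme whose loss causes a congenital lipodystrophy in people, gave 8.10, 10.4 and 8.80 CPM in wildtype and 12.4, 12.6 and 14.7 CPM in mutant libraries of group 1. Group 2 gave 11.9, 7.95 and 9.49 CPM in wildtype, 15.1, 13.2 and 14.6 CPM in mutants and 17.6, 15.5 and 16.5 CPM in low-yield mutants. Again no mutant library overlapped with wildtype. As log2 fold changes, Agpat2 showed 0.54 ± 0.14 (SE, adjusted p = 0.0277) in group 1 and 0.56 ± 0.15 (SE, adjusted p = 0.0442) in group 2 mutants. Low-yield mutants gave 0.76 ± 0.15 (SE, adjusted p = 0.00413) and both groups together 0.55 ± 0.10 (SE, adjusted p = 0.000849). Agpat2 lost its call in group 1 in 3 of 6 fits that left out 1 library (group 1 wildtype 1 or 3, group 1 mutant 3; adjusted p 0.0792 to 0.131), and in group 2 mutants in 8 of 9 fits that left out 1 library (group 2 wildtype 2 or 3, group 2 mutant 1, 2 or 3, low-yield mutant 1, 2 or 3; adjusted p 0.0524 to 0.18), and in group 2 mutants also when the low-yield libraries were kept out of the fit (adjusted p = 0.0769). Its exons overlap those of Egfl7 on the other strand, whose level was 44.8 to 68.8 CPM with no call in the 4 comparisons (adjusted p 0.136 to 0.563), and since the use of strand in counting is not given in the sources used here, reads of this pair cannot be separated with certainty. For the other members called in a comparison with wildtype, and for Agpat1, genes with overlapping exons read at most 3.45 CPM in any library. Among members not called, Lpcat3 shares exons with Emg1 (144 to 208 CPM), Plin4 with Hdgfl2 (128 to 183 CPM), Ptdss1 with Mterf3 (18.9 to 29.2 CPM) and Cept1 with Dram2 (3.93 to 10.96 CPM) and Dennd2d (1.62 to 5.89 CPM), all on the other strand, so those 4 counts are uncertain too. The bases before the first annotated exon of Agpat2 are shown because the gene passed in all 4 comparisons (RefSeq, GRCm38.p6, 5′ to 3′ on the gene's strand); none of the 5 motifs searched on both strands is in them, namely AGATAA or TGATAA of the GATA type, CCACACCC of the erythroid Krüppel-like type, the E-box CACGTG and the sterol response type TCACNCCAC.
Agpat2, chr2:26604418-26604667, minus strand: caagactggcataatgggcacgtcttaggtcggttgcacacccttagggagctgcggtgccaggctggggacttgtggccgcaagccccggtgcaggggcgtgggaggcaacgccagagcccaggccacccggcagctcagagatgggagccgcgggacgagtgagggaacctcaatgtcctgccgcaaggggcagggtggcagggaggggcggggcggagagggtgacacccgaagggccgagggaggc

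Gpat2, a mitochondrial glycerol 3-phosphate acyltransferase known mainly from testis, gave 2.07, 2.35 and 2.16 CPM in wildtype and 0.891, 0.786 and 0.316 CPM in mutant libraries of group 1. Wildtype, mutant and low-yield mutant libraries of group 2 stood at 2.31, 2.17 and 3.59 CPM, at 0.571, 0.579 and 2.32 CPM and at 1.85, 0.639 and 2.61 CPM. The genotypes were apart in group 1, while in group 2 mutant replicate 3 and low-yield replicate 3 lay within the wildtype range. The fitted log2 fold change of Gpat2 was -1.72 ± 0.37 (SE, adjusted p = 0.0113) in group 1 and -1.11 ± 0.51 (SE, adjusted p = 0.238) in group 2 mutants. The value for low-yield mutants was -0.64 ± 0.47 (SE, adjusted p = 0.421) and that over both groups -1.41 ± 0.31 (SE, adjusted p = 0.0028). For Gpat2 the call ended in group 1 without wildtype replicate 2 (adjusted p = 0.0538) or group 1 mutant replicate 3 (adjusted p = 0.0618). Agpat4, another lysophosphatidic acid acyltransferase, gave 29.1, 31.5 and 38.2 CPM in wildtype and 25.9, 25.2 and 27.4 CPM in mutant libraries of group 1. For Agpat4, group 2 read 28.3, 31.8 and 36.8 CPM in wildtype, 23.1, 30.5 and 28.5 CPM in mutant and 21.1, 21.4 and 28.7 CPM in low-yield mutant libraries. Only group 1 separated the genotypes. The log2 fold change of Agpat4 was -0.33 ± 0.11 (SE, adjusted p = 0.0628) in group 1 and -0.24 ± 0.14 (SE, adjusted p = 0.379) in group 2 mutants. Over both groups it was -0.29 ± 0.086 (SE, adjusted p = 0.0206), and in low-yield mutants -0.44 ± 0.14 (SE, adjusted p = 0.0581). With the replicate block the group 1 value was called (-0.33, adjusted p = 0.0156), as it was in DESeq2 (0.0376). DESeq2 also called Agpat4 in low-yield mutants (adjusted p = 0.0383), as did edgeR without wildtype replicate 1 (0.027) or low-yield replicate 3 (0.0128). The call was lost over both groups in 3 of 12 fits that left out 1 library (group 1 wildtype 3, group 2 wildtype 3, group 2 mutant 1; adjusted p 0.0521 to 0.0668).

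Agpat1, the most abundant member of this arm, gave 86.1, 79.3 and 79.1 CPM in wildtype and 87.00, 75.8 and 82.98 CPM in mutant libraries of group 1. In group 2 its values were 131, 129 and 114 CPM in wildtype, 137, 123 and 131 CPM in mutant and 128, 131 and 119.9 CPM in low-yield mutant libraries. Its libraries overlapped in each comparison. Its log2 fold change was 0.0080 ± 0.072 (SE, adjusted p = 0.958) in group 1 and 0.064 ± 0.082 (SE, adjusted p = 0.731) in group 2 mutants. It was 0.016 ± 0.082 (SE, adjusted p = 0.932) in low-yield mutants and 0.037 ± 0.060 (SE, adjusted p = 0.725) over both groups. The remaining members tested in this arm, the glycerol 3-phosphate acyltransferases Gpam and Gpat4 and the acyltransferase Agpat5, passed in none of the 4 comparisons in edgeR. As shares of the summed RPKM of the 5 Agpat genes, Agpat3 stood at 3.99% ± 0.313 in wildtype and 6.15% ± 0.268 in mutants of group 1 (SD, n = 3), and at 4.52% ± 0.502, 7.06% ± 1.14 and 6.44% ± 0.214 in wildtype, mutants and low-yield mutants of group 2. The summed RPKM itself was 54.1 ± 0.300 and 55.9 ± 3.10 in group 1 and 69.1 ± 1.32, 73.8 ± 2.45 and 71.3 ± 0.424 in group 2.

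In the triglyceride arm none of 5 members tested passed in edgeR in group 1 or in group 2 mutants, with 1 in each at an unadjusted p under 0.05. DESeq2 called Lpin2 in group 1 (adjusted p = 0.0112) and Lpin1 in group 2 mutants (adjusted p = 0.0224), and edgeR with no filter on low counts also called Lpin1 there (adjusted p = 0.0362). Dgat2 rose in low-yield mutants (1 of 5, against 6.68% of all genes higher). Over both groups Lpin1 rose and Lpin2 fell (1 of 5 in each direction, against 9.80% of all genes). Lpin1, a phosphatidic acid phosphatase that also acts as a transcriptional coactivator, gave 10.2, 11.01 and 16.2 CPM in wildtype and 14.6, 20.6 and 14.4 CPM in mutant libraries of group 1. The wildtype libraries of group 2 read 13.00, 21.4 and 18.3 CPM, its mutants 23.1, 28.1 and 25.5 CPM and its low-yield mutants 17.2, 15.5 and 15.8 CPM. The genotypes overlapped in group 1, and in group 2 the mutants lay above wildtype while the low-yield mutants did not. As log2 fold changes, Lpin1 showed 0.40 ± 0.21 (SE, adjusted p = 0.248) in group 1 and 0.54 ± 0.15 (SE, adjusted p = 0.0519) in group 2 mutants. In low-yield mutants Lpin1 had -0.13 ± 0.16 (SE, adjusted p = 0.665), and over both groups 0.47 ± 0.13 (SE, adjusted p = 0.0188). In group 2 mutants Lpin1 was called without wildtype replicate 2 (adjusted p = 0.0346). The Lpin1 call was lost over both groups without group 1 wildtype replicate 1 (adjusted p = 0.0545) or group 2 mutant replicate 3 (adjusted p = 0.055).

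Lpin2, the lipin with the highest level per length here and the gene mutated in a human syndrome with dyserythropoietic anaemia, gave 107, 124 and 134 CPM in wildtype and 85.7, 109 and 95.2 CPM in mutant libraries of group 1. Group 2 gave 115, 108 and 101 CPM in wildtype, 88.5, 111 and 89.9 CPM in mutants and 89.3, 95.8 and 98.1 CPM in low-yield mutants. Mutant replicate 2 lay within the wildtype range in group 1 and above 2 wildtype libraries in group 2, and the low-yield mutants lay below wildtype. The fitted log2 fold change of Lpin2 was -0.33 ± 0.10 (SE, adjusted p = 0.0688) in group 1 and -0.15 ± 0.096 (SE, adjusted p = 0.408) in group 2 mutants. Low-yield mutants gave -0.19 ± 0.096 (SE, adjusted p = 0.237) and both groups together -0.25 ± 0.073 (SE, adjusted p = 0.0224). With the replicate block the group 1 value was called (-0.33, adjusted p = 0.00211). It was also called there without wildtype replicate 1 (0.0362) or mutant replicate 2 (0.016). Lpin2 lost its call over both groups in 6 of 12 fits that left out 1 library (group 1 wildtype 2 or 3, group 1 mutant 1 or 3, group 2 mutant 1 or 3; adjusted p 0.0521 to 0.0658). Lpin1 made up 11.1% ± 1.77 of the summed lipin RPKM in wildtype and 17.1% ± 1.46 in mutants of group 1, and 16.4% ± 3.96, 24.3% ± 0.856 and 17.02% ± 1.41 in wildtype, mutants and low-yield mutants of group 2.

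Dgat2, which makes triglyceride at the droplet surface, was a low transcript, with 0.735, 0.711 and 1.94 CPM in wildtype and 1.40, 2.12 and 1.72 CPM in mutant libraries of group 1. Wildtype, mutant and low-yield mutant libraries of group 2 stood at 0.822, 1.04 and 0.646 CPM, at 1.85, 1.00 and 1.45 CPM and at 2.21, 2.25 and 1.80 CPM. Only the low-yield mutants were clear of wildtype. The log2 fold change of Dgat2 was 0.59 ± 0.41 (SE, adjusted p = 0.391) in group 1 and 0.82 ± 0.40 (SE, adjusted p = 0.266) in group 2 mutants. The value for low-yield mutants was 1.33 ± 0.36 (SE, adjusted p = 0.0257) and that over both groups 0.67 ± 0.29 (SE, adjusted p = 0.112). Over both groups Dgat2 was called without wildtype replicate 3 of group 1 (adjusted p = 0.0139). For Dgat2 the call ended in low-yield mutants in 3 of 9 fits that left out 1 library (group 2 wildtype 3, low-yield mutant 1 or 2; adjusted p 0.0956 to 0.113). Dgat1 and Lpin3 passed in none of the 4 comparisons in edgeR.

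In the head group arm every call of the main edgeR fits (all libraries, filterByExpr) was a fall. These were 5 of 17 members in group 1 (6.78% of all genes were lower), 0 in group 2 mutants (2.95%), 2 in low-yield mutants (5.86%) and 5 over both groups (9.80%). In group 2 mutants 4 passed at an unadjusted p under 0.05, and DESeq2 called 1, Pcyt1a. Rises of Selenoi and Cept1 called under other settings are given below. The 2 of 17 in low-yield mutants were 11.8% of the arm. The falls lay in the choline and ethanolamine branches, in phosphatidylserine synthesis and at the first step towards cardiolipin. Pcyt1a (ENSMUSG00000005615, chr16:32430921-32475070, plus strand), the rate-limiting enzyme of phosphatidylcholine synthesis by the choline branch, gave 122, 133 and 129 CPM in wildtype and 114, 101 and 107 CPM in mutant libraries of group 1. For Pcyt1a, group 2 read 169, 164 and 179 CPM in wildtype, 146, 142 and 145 CPM in mutant and 129, 139 and 147 CPM in low-yield mutant libraries. All mutant and low-yield libraries lay below all wildtype libraries of their group. Its log2 fold change was -0.25 ± 0.066 (SE, adjusted p = 0.0288) in group 1 and -0.24 ± 0.077 (SE, adjusted p = 0.0767) in group 2 mutants. Over both groups it was -0.25 ± 0.051 (SE, adjusted p = 0.00186), and in low-yield mutants -0.31 ± 0.077 (SE, adjusted p = 0.0167). The call was lost in group 1 in 5 of 6 fits that left out 1 library (group 1 wildtype 1, 2 or 3, group 1 mutant 2 or 3; adjusted p 0.0572 to 0.124), and in low-yield mutants in 3 of 9 fits that left out 1 library (group 2 wildtype 3, low-yield mutant 1 or 2; adjusted p 0.0697 to 0.127). The bases before its first annotated exon (RefSeq, GRCm38.p6, gene strand) are shown with the letters TCACNCCAC, a sterol response type motif, in capitals: of the 39 members with a RefSeq window it alone had a match, on either strand, and 1.05% of 32851 mouse promoters of that length hold one.
Pcyt1a, chr16:32430671-32430920, plus strand: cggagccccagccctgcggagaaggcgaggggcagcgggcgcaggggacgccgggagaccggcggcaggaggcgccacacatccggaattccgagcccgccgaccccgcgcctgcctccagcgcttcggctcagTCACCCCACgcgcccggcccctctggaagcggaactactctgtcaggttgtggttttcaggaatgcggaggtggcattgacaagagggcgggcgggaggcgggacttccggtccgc

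Pcyt2, the matching enzyme for phosphatidylethanolamine, gave 65.5, 72.5 and 75.8 CPM in wildtype and 51.2, 59.9 and 54.3 CPM in mutant libraries of group 1. In group 2 its values were 71.9, 66.6 and 74.04 CPM in wildtype, 64.9, 59.7 and 58.8 CPM in mutant and 59.6, 61.6 and 55.3 CPM in low-yield mutant libraries. The genotypes did not overlap in any of the 3 sets. As log2 fold changes, Pcyt2 showed -0.37 ± 0.082 (SE, adjusted p = 0.0131) in group 1 and -0.21 ± 0.086 (SE, adjusted p = 0.167) in group 2 mutants. It was -0.27 ± 0.086 (SE, adjusted p = 0.052) in low-yield mutants and -0.29 ± 0.061 (SE, adjusted p = 0.0018) over both groups. In low-yield mutants DESeq2 called Pcyt2 (adjusted p = 0.0261), as did edgeR with a mean CPM of at least 1 (0.0445). The Pcyt2 call was lost in group 1 in 3 of 6 fits that left out 1 library (group 1 wildtype 2 or 3, group 1 mutant 3; adjusted p 0.0553 to 0.0643). Chpt1, an enzyme of the last step of the choline branch but not the only one among the members, was low. It gave 6.63, 4.90 and 7.43 CPM in wildtype and 4.07, 4.37 and 2.67 CPM in mutant libraries of group 1. The wildtype libraries of group 2 read 3.38, 3.52 and 4.46 CPM, its mutants 3.36, 3.32 and 2.48 CPM and its low-yield mutants 2.91, 2.98 and 3.04 CPM. The gap to wildtype in group 2 mutants was narrow, from 3.36 to 3.38 CPM. The fitted log2 fold change of Chpt1 was -0.78 ± 0.23 (SE, adjusted p = 0.0492) in group 1 and -0.35 ± 0.24 (SE, adjusted p = 0.469) in group 2 mutants. In low-yield mutants Chpt1 had -0.36 ± 0.24 (SE, adjusted p = 0.366), and over both groups -0.62 ± 0.17 (SE, adjusted p = 0.0152). Chpt1 lost its call in group 1 in 6 of 6 fits that left out 1 library (group 1 wildtype 1, 2 or 3, group 1 mutant 1, 2 or 3; adjusted p 0.0502 to 0.206), and over both groups without group 1 wildtype replicate 3 (adjusted p = 0.0547) or group 1 mutant replicate 3 (adjusted p = 0.0563), and in group 1 also with the size factors of DESeq2 (adjusted p = 0.0523). Parts of the Chpt1 transcript match other genes, so its count is uncertain.

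Ptdss2 (ENSMUSG00000025495, chr7:141122382-141157606, plus strand), which makes phosphatidylserine from phosphatidylethanolamine, gave 136, 137 and 139 CPM in wildtype and 117, 106 and 108 CPM in mutant libraries of group 1. Group 2 gave 143, 152 and 153 CPM in wildtype, 118, 120.3 and 132 CPM in mutants and 115, 101 and 132 CPM in low-yield mutants. Each mutant library lay below wildtype. The log2 fold change of Ptdss2 was -0.32 ± 0.062 (SE, adjusted p = 0.00712) in group 1 and -0.28 ± 0.095 (SE, adjusted p = 0.1) in group 2 mutants. Low-yield mutants gave -0.36 ± 0.094 (SE, adjusted p = 0.0204) and both groups together -0.29 ± 0.053 (SE, adjusted p = 0.000525). For Ptdss2 the call ended in group 1 without mutant replicate 3 (adjusted p = 0.0549), and in low-yield mutants in 4 of 9 fits that left out 1 library (group 2 wildtype 2 or 3, low-yield mutant 1 or 2; adjusted p 0.0641 to 0.135). Its partner Ptdss1, which starts from phosphatidylcholine, had log2 fold changes of 0.050 ± 0.071 (SE, adjusted p = 0.692) in group 1 and 0.14 ± 0.086 (SE, adjusted p = 0.407) in group 2 mutants. The value for low-yield mutants was 0.22 ± 0.085 (SE, adjusted p = 0.104) and that over both groups 0.093 ± 0.057 (SE, adjusted p = 0.281). As a share of the summed RPKM of both synthases, Ptdss2 stood at 69.6% ± 0.480 in wildtype and 63.97% ± 0.790 in mutants of group 1. In group 2 the share was 72.2% ± 0.257 in wildtype, 66.1% ± 1.35 in mutants and 63.3% ± 1.83 in low-yield mutants. The sums include Ptdss1, whose count is uncertain because it shares exons with Mterf3.

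Pgs1, the first enzyme from CDP-diacylglycerol towards cardiolipin, gave 48.03, 52.5 and 52.02 CPM in wildtype and 41.5, 41.7 and 39.7 CPM in mutant libraries of group 1. Wildtype, mutant and low-yield mutant libraries of group 2 stood at 61.2, 60.6 and 53.97 CPM, at 51.9, 52.1 and 55.7 CPM and at 52.1, 56.8 and 54.7 CPM. Only group 1 separated the genotypes. Its log2 fold change was -0.31 ± 0.073 (SE, adjusted p = 0.0169) in group 1 and -0.14 ± 0.087 (SE, adjusted p = 0.428) in group 2 mutants. Over both groups it was -0.22 ± 0.061 (SE, adjusted p = 0.0124), and in low-yield mutants -0.10 ± 0.087 (SE, adjusted p = 0.5). The call was lost in group 1 in 3 of 6 fits that left out 1 library (group 1 wildtype 2 or 3, group 1 mutant 3; adjusted p 0.0527 to 0.0857). The other 12 members tested in this arm passed in none of the 4 comparisons in the main edgeR fits. They include the choline kinases Chka and Chkb, the ethanolamine enzymes Etnk1 and Selenoi, the cardiolipin synthase Crls1 and the phosphatidylinositol synthase Cdipt. Over both groups DESeq2 called Selenoi as higher (log2 fold change 0.15, adjusted p = 0.0353), as did edgeR with a mean CPM of at least 1 (0.0376) or without mutant replicate 2 of group 1 (0.0213), against 0.0664 in the edgeR fit. When 1 library was left out, Chkb passed as lower in group 1 and over both groups (without mutant replicate 2 of group 1, adjusted p = 0.0484 and 0.0343). Pcyt1b passed as lower in low-yield mutants and over both groups (without wildtype replicate 1 of group 2, 0.0193 and 0.0479), and Cept1 as higher in low-yield mutants (without wildtype replicate 3, 0.0428). Pisd and Chkb share sequence with pseudogenes or a readthrough gene, so their counts are uncertain.

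**Figure D3:**
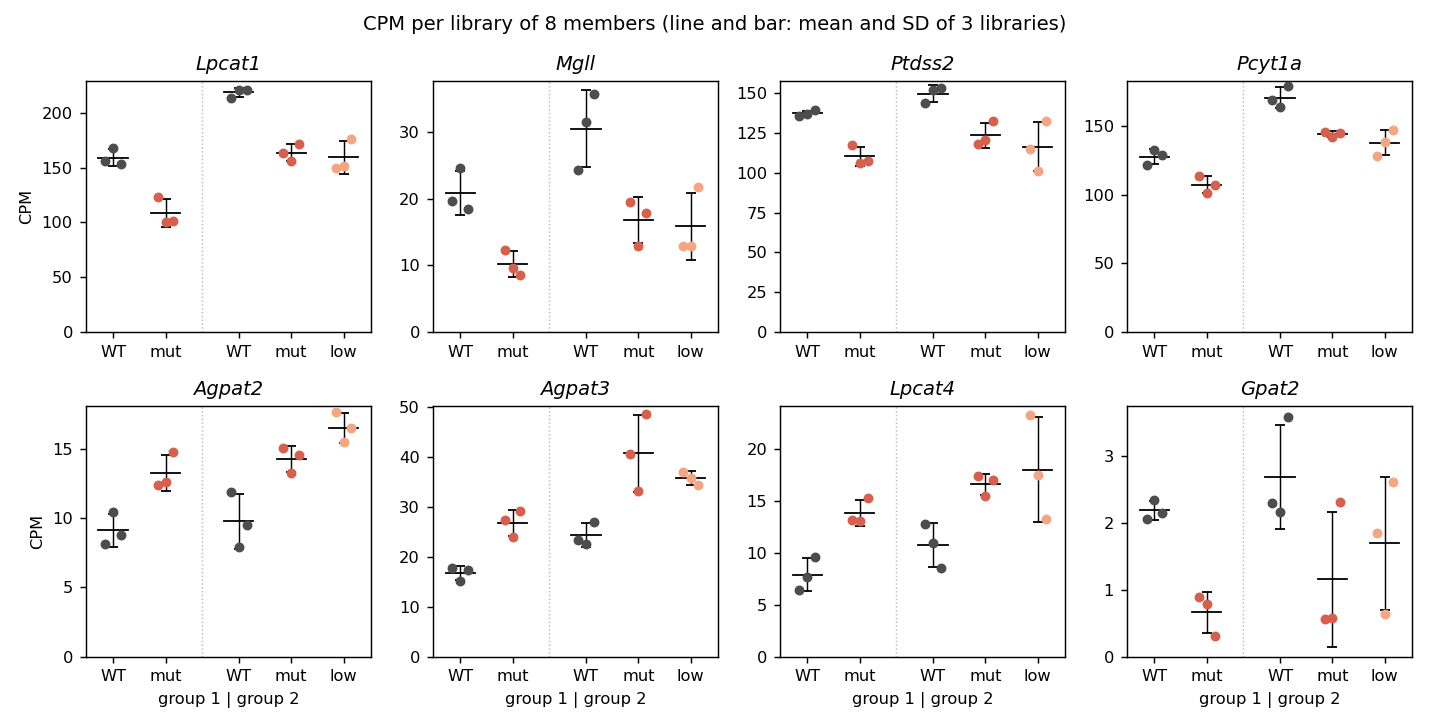
CPM per library (y axis) of 8 members in wildtype (WT) and mutant (mut) libraries of group 1 and in wildtype, mutant and low-yield mutant (low) libraries of group 2; lines and bars are the mean and SD of 3 libraries. Lpcat1, Mgll, Ptdss2 and Pcyt1a lie lower, and Agpat2, Agpat3 and Lpcat4 higher, in every mutant library than in wildtype of the same group; Gpat2 overlaps in group 2.

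The remodelling arm held the most abundant member of the pathway, and that member fell. Lpcat1 (ENSMUSG00000021608, chr13:73467197-73516422, plus strand), which adds a saturated acyl chain to lysophosphatidylcholine, gave 156, 168 and 153 CPM in wildtype and 123, 100.2 and 101 CPM in mutant libraries of group 1. For Lpcat1, group 2 read 214, 221 and 221 CPM in wildtype, 163, 156 and 172 CPM in mutant and 149.9, 152 and 176 CPM in low-yield mutant libraries. The mutants of each class lay below wildtype with no overlap. As log2 fold changes, Lpcat1 showed -0.56 ± 0.082 (SE, adjusted p = 0.00153) in group 1 and -0.42 ± 0.081 (SE, adjusted p = 0.00701) in group 2 mutants. It was -0.45 ± 0.081 (SE, adjusted p = 0.00208) in low-yield mutants and -0.48 ± 0.063 (SE, adjusted p = 1.99e-05) over both groups. The call was kept in all settings tried, each left-out library included. The bases before its first annotated exon (RefSeq, GRCm38.p6, gene strand) are shown because it has the highest level of the 47 and passed in all 4 comparisons; none of the 5 motifs is in them.
Lpcat1, chr13:73466981-73467196, plus strand: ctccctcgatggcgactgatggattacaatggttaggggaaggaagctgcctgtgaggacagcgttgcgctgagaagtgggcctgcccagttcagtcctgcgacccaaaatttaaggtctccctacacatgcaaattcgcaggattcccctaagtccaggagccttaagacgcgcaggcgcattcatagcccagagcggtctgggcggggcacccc

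Lpcat4, an isoenzyme that also takes lysophosphatidylethanolamine, moved the other way, with 6.44, 7.73 and 9.64 CPM in wildtype and 13.2, 13.1 and 15.3 CPM in mutant libraries of group 1. In group 2 its values were 12.8, 10.9 and 8.58 CPM in wildtype, 17.4, 15.5 and 17.1 CPM in mutant and 23.4, 17.5 and 13.3 CPM in low-yield mutant libraries. All mutant libraries lay above wildtype. The fitted log2 fold change of Lpcat4 was 0.80 ± 0.16 (SE, adjusted p = 0.00735) in group 1 and 0.64 ± 0.20 (SE, adjusted p = 0.0673) in group 2 mutants. In low-yield mutants Lpcat4 had 0.75 ± 0.19 (SE, adjusted p = 0.0202), and over both groups 0.73 ± 0.11 (SE, adjusted p = 9.87e-05). In group 2 mutants DESeq2 called Lpcat4 (adjusted p = 0.0298), as did edgeR on the 6 libraries compared (0.0371) or without wildtype replicate 1, low-yield replicate 1 or low-yield replicate 3 (0.0295 to 0.0439). The Lpcat4 call was lost in low-yield mutants in 4 of 9 fits that left out 1 library (group 2 wildtype 2 or 3, low-yield mutant 1 or 2; adjusted p 0.0613 to 0.126). Lpcat3, which inserts polyunsaturated chains, had log2 fold changes of 0.077 ± 0.075 (SE, adjusted p = 0.554) in group 1 and 0.18 ± 0.083 (SE, adjusted p = 0.242) in group 2 mutants. Low-yield mutants gave 0.20 ± 0.083 (SE, adjusted p = 0.134) and both groups together 0.13 ± 0.059 (SE, adjusted p = 0.147). As a share of the summed RPKM of the 4 Lpcat genes, Lpcat1 stood at 56.04% ± 1.83 in wildtype and 43.4% ± 4.70 in mutants of group 1, and Lpcat4 at 4.59% ± 0.945 and 9.12% ± 0.598. In group 2 the share of Lpcat1 was 66.7% ± 1.87 in wildtype, 55.4% ± 0.906 in mutants and 54.02% ± 3.91 in low-yield mutants. The share of Lpcat4 there was 5.39% ± 1.04, 9.26% ± 0.271 and 10.1% ± 2.88 in the same order. The summed RPKM of the family was 61.2 ± 0.954 and 53.8 ± 2.02 in group 1 and 70.8 ± 1.97, 63.7 ± 2.57 and 63.6 ± 1.77 in group 2. The shares are derived from the levels above and carry no test of their own. The sums include Lpcat3, whose count is uncertain because it shares exons with Emg1.

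**Figure D4:**
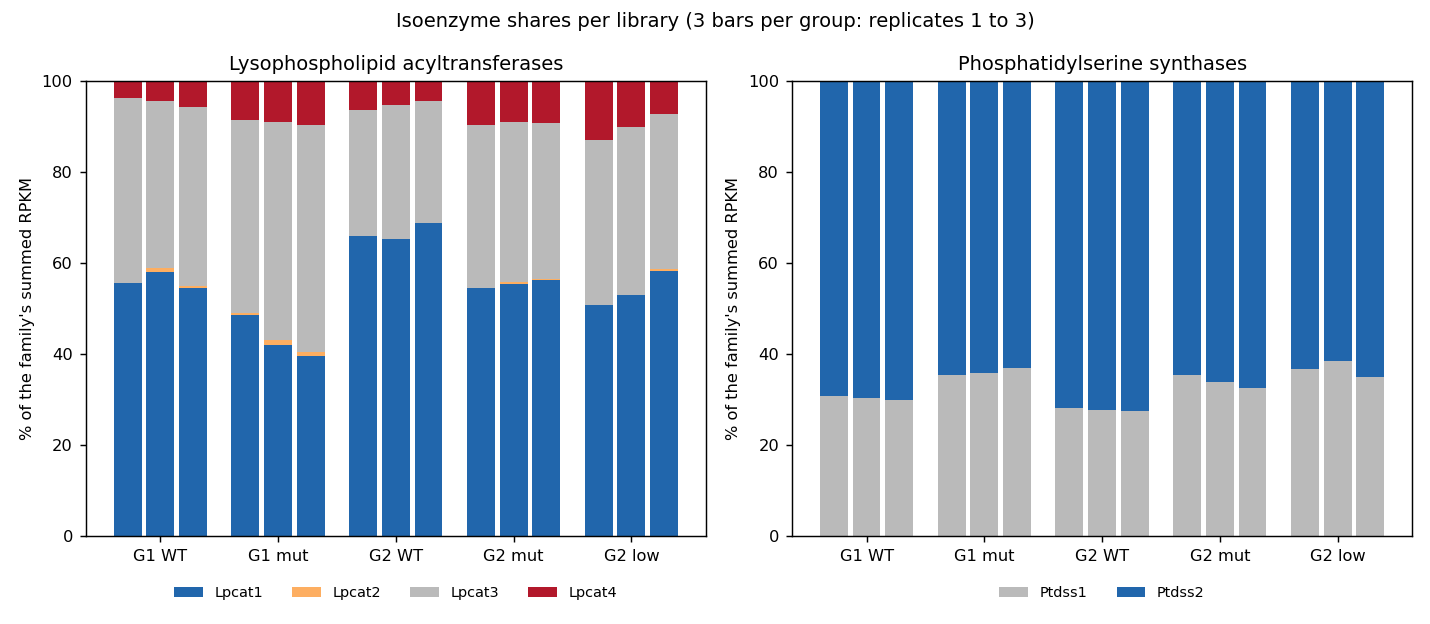
Share (%, y axis) of the summed RPKM of a family taken by each isoenzyme in each of the 15 libraries, for the lysophospholipid acyltransferases (left) and the phosphatidylserine synthases (right); G1 and G2 are group 1 and group 2, WT wildtype, mut mutant and low low-yield mutant. The Lpcat1 and Ptdss2 bars are shorter in every mutant library than in every wildtype library of the same group. The counts of Lpcat3 and Ptdss1 in the sums are uncertain.

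Lpcat2, the inducible isoenzyme that makes platelet activating factor and is known from myeloid cells, was near the limit of detection, with 0.135, 1.79 and 1.01 CPM in wildtype and 0.770, 1.85 and 1.96 CPM in mutant libraries of group 1. The wildtype libraries of group 2 read 0, 0 and 0 CPM, its mutants 0.101, 0.811 and 0.310 CPM and its low-yield mutants 0.416, 0.122 and 0.839 CPM. All wildtype libraries of group 2 had 0 counts, against 36 counts over the mutants and 52 over the low-yield mutants. Against a floor set at 3 counts over the wildtype group, the level was 14.1-fold and 18.2-fold higher. That floor does not allow for the spread between libraries, so these values are not firm lower limits. Without mutant replicate 2 the first value was 8.11-fold, and without low-yield replicate 3 the other was 9.82-fold. It passed in low-yield mutants (adjusted p = 0.0329), not in group 1 (0.555), group 2 mutants (0.0873) or over both groups (0.241). DESeq2 called it in group 2 mutants (adjusted p = 0.00175) and over both groups (log2 fold change 2.48, adjusted p = 0.0128), and edgeR called it over both groups without wildtype replicate 2 of group 1 (1.66, adjusted p = 0.04). Lpcat2 lost its call in low-yield mutants in 5 of 9 fits that left out 1 library (group 2 wildtype 2 or 3, group 2 mutant 3, low-yield mutant 1 or 3; adjusted p 0.0501 to 0.112). The granulocyte marker sum was also higher in the mutant classes of group 2 than in its wildtype, and its part in this value was not tested.

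Of the lipases tested, Mgll fell, and Pnpla2 and Lipe did not pass in the main edgeR fits. Mgll (ENSMUSG00000033174, chr6:88724412-88828360, plus strand), the lipase that splits monoacylglycerol, including the endocannabinoid arachidonoylglycerol, gave 19.6, 24.6 and 18.4 CPM in wildtype and 12.3, 9.63 and 8.50 CPM in mutant libraries of group 1. Group 2 gave 24.3, 31.4 and 35.7 CPM in wildtype, 19.5, 12.9 and 17.9 CPM in mutants and 12.9, 12.9 and 21.7 CPM in low-yield mutants. Its mutant libraries lay below wildtype without overlap in each set. The log2 fold change of Mgll was -1.04 ± 0.16 (SE, adjusted p = 0.00171) in group 1 and -0.86 ± 0.22 (SE, adjusted p = 0.0395) in group 2 mutants. The value for low-yield mutants was -0.93 ± 0.22 (SE, adjusted p = 0.0157) and that over both groups -0.95 ± 0.13 (SE, adjusted p = 5.58e-05). For Mgll the call ended in group 2 mutants in 5 of 9 fits that left out 1 library (group 2 wildtype 2 or 3, group 2 mutant 1, 2 or 3; adjusted p 0.0758 to 0.137), and in low-yield mutants in 4 of 9 fits that left out 1 library (group 2 wildtype 2 or 3, low-yield mutant 1 or 2; adjusted p 0.0594 to 0.0736), and in group 2 mutants also with no filter on low counts (adjusted p = 0.0825). The bases before its first annotated exon (RefSeq, GRCm38.p6, gene strand) are shown with an E-box, CACGTG, in capitals; 6.02% of promoters of that length hold one.
Mgll, chr6:88724162-88724411, plus strand: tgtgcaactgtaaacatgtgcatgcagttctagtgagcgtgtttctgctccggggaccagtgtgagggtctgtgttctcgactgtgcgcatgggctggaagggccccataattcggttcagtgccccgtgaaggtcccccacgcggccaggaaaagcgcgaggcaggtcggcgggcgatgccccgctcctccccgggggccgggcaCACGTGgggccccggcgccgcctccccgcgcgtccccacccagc

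Pnpla2, which starts the breakdown of triglyceride, and Lipe, the hormone-sensitive lipase, passed in none of the 4 comparisons in edgeR, although Lipe was called as higher in group 2 mutants without wildtype replicate 1 (adjusted p = 0.0421). Plin3, a coat protein of nascent droplets, gave 28.2, 34.4 and 36.5 CPM in wildtype and 24.6, 28.96 and 32.6 CPM in mutant libraries of group 1. Wildtype, mutant and low-yield mutant libraries of group 2 stood at 35.8, 35.5 and 36.2 CPM, at 27.6, 29.6 and 29.7 CPM and at 30.5, 24.6 and 28.6 CPM. Mutants and low-yield mutants of group 2 lay below wildtype, whereas group 1 overlapped. Its log2 fold change was -0.20 ± 0.12 (SE, adjusted p = 0.327) in group 1 and -0.31 ± 0.10 (SE, adjusted p = 0.0932) in group 2 mutants. Over both groups it was -0.25 ± 0.074 (SE, adjusted p = 0.0207), and in low-yield mutants -0.36 ± 0.10 (SE, adjusted p = 0.0302). The call was lost in low-yield mutants in 5 of 9 fits that left out 1 library (group 2 wildtype 2 or 3, low-yield mutant 1, 2 or 3; adjusted p 0.0502 to 0.173), and over both groups in 3 of 12 fits that left out 1 library (group 1 wildtype 3, group 1 mutant 1, group 2 mutant 1; adjusted p 0.0579 to 0.0652), and in low-yield mutants also with no filter on low counts (adjusted p = 0.0527) or with the group 2 mutants kept out of the fit (0.052). Plin2, the most abundant droplet protein here, gave 95.9, 108 and 87.5 CPM in wildtype and 98.04, 95.7 and 91.3 CPM in mutant libraries of group 1. For Plin2, group 2 read 96.8, 117 and 117 CPM in wildtype, 95.01, 92.3 and 116 CPM in mutant and 90.3, 85.9 and 107 CPM in low-yield mutant libraries. Its libraries overlapped throughout. As log2 fold changes, Plin2 showed -0.032 ± 0.080 (SE, adjusted p = 0.833) in group 1 and -0.13 ± 0.11 (SE, adjusted p = 0.589) in group 2 mutants. It was -0.23 ± 0.11 (SE, adjusted p = 0.212) in low-yield mutants and -0.078 ± 0.073 (SE, adjusted p = 0.507) over both groups.

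Low-yield mutants and mutants of group 2 were also compared directly. No member passed (1 of 40 at an unadjusted p under 0.05; DESeq2 called 0), and no gene did among 15024 (0%; 480 unadjusted; DESeq2 called 6). Libraries of the classes did not overlap for 7 of 40 members (8.21% of all genes). The member with the smallest p was Lpin1, at 23.1, 28.1 and 25.5 CPM in mutants and 17.2, 15.5 and 15.8 CPM in low-yield mutants. All low-yield libraries lay below all mutant libraries, with a log2 difference of -0.66 ± 0.16 (SE, unadjusted p = 0.000685, adjusted p = 1). The fitted differences of the 40 members ran from -0.66 to 0.51. No member passed either in the test that set the genotype effects of the 2 groups of mice against each other (0 of 40, also at an unadjusted p under 0.05 and in DESeq2), against 3 of 15954 genes (0.0188%; 342 unadjusted; DESeq2 called 13). The smallest p there was that of Lpcat2 (unadjusted p = 0.0969), whose wildtype level was 0 in group 2.

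A wider list of 105 genes around the pathway was read in the same fits. It was chosen by function but with earlier results of these data known, so its shares are no independent support. In group 1, 19 of 84 tested passed (22.6%, 10 higher and 9 lower), against 12.6% of all genes. In group 2 mutants 10 of 85 passed (11.8%, 8 and 2), against 6.27%. In low-yield mutants 19 of 85 passed (22.4%, 12 and 7), against 1884 of all 15024 genes, 6.68% higher and 5.86% lower. Over both groups 28 of 88 passed (31.8%, 15 and 13), against 19.6%. In that fit 3 of 10 genes that feed the pathway with glycerol 3-phosphate or ether lipid precursors rose and 1 fell. The 3 were the ether lipid enzyme Agps (0.32 ± 0.050 SE, adjusted p = 0.000122), the mitochondrial glycerol 3-phosphate dehydrogenase Gpd2 (0.35 ± 0.060 SE, adjusted p = 0.000368) and the acylglycerol kinase Agk (0.32 ± 0.067 SE, adjusted p = 0.0023), as log2 fold changes. The phospholipases and lysophospholipases had the highest share of calls, 10 of 21 (3 higher and 7 lower, against 9.80% of all genes in each direction). Lypla1, a lysophospholipase that also removes palmitate from proteins, rose (0.60 ± 0.057 SE, adjusted p = 5.34e-07), as did the arachidonate-releasing phospholipase Pla2g4a (0.48 ± 0.083 SE, adjusted p = 0.000396), and Plaat3 fell (-0.66 ± 0.075 SE, adjusted p = 4.8e-06).

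Of 17 genes of phosphatidate and diacylglycerol turnover, 1 rose and 1 fell (11.8%, below the 19.6% of all genes): the diacylglycerol kinase Dgkh (1.10 ± 0.18 SE, adjusted p = 0.000232) and the lipid phosphatase Plpp1 (-0.91 ± 0.17 SE, adjusted p = 0.000593). Of 6 further lysophospholipid acyltransferases 2 rose (against 9.80% of all genes), Lpgat1 (0.62 ± 0.13 SE, adjusted p = 0.00173) and the phosphatidylinositol remodelling enzyme Mboat7 (0.25 ± 0.071 SE, adjusted p = 0.0189). Among 12 droplet and lipase partners 3 rose and 1 fell (33.3%). The diacylglycerol lipase Daglb, which produces the substrate of Mgll, was the one that fell (-0.46 ± 0.067 SE, adjusted p = 7.01e-05). The lysosomal lipase Lipa (0.25 ± 0.070 SE, adjusted p = 0.0169) and the droplet protein Hsd17b11 (0.64 ± 0.19 SE, adjusted p = 0.0212) rose. Of 22 choline transporters, flippases and scramblases 3 rose and 3 fell (27.3%). The 3 with the smallest p were all risers, namely the flippase subunit Atp8b2 (1.73 ± 0.22 SE, adjusted p = 1.49e-05), the scramblase Ano6 (0.89 ± 0.11 SE, adjusted p = 8.07e-06), which exposes phosphatidylserine on activated platelets, and Plscr1 (0.54 ± 0.12 SE, adjusted p = 0.00347). No gene of the 105 passed between low-yield mutants and mutants (6 at an unadjusted p under 0.05) or in the difference between the groups of mice (2 unadjusted).

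RefSeq promoters of 250 bases were on hand for 39 of the 47 members (56 windows, some of the same gene). Over both strands, AGATAA was in 5 of the 56 (9.99% of all 32851 windows), TGATAA in 4 (7.94%), CCACACCC in 3 (3.20%), CACGTG in 4 (6.02%) and TCACNCCAC in 2 (1.05%), the last being overlapping windows of Pcyt1a around the same site. AGATAA and TGATAA are GATA factor motifs and CCACACCC is the erythroid Krüppel-like factor type. Among the members called in all 4 comparisons, Mgll had a match, to the E-box, and Agpat2, Agpat3 and Lpcat1 had none.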

How the data were processed

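RNA sequencing of 15 libraries was used, grouped from their titles. Per the labels, RNA was extracted with RNeasy Micro and read as 151 bp paired ends on a NovaSeq. As deposited, each table holds expected counts of genes without normalisation. The submitters' processing notes name cutadapt 2.3, FastQC 0.11.8, STAR 2.7.8a, RSEM 1.3.3, MultiQC 1.7 and GRCm38, without roles; the annotation and the use of strand are not given in the sources used here. The expected counts were whole, so rounding changed 0 values. Rows of non-mouse sequences (at most 2 counts per value) were left out.

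From these, CPM with TMM-scaled totals, and RPKM (CPM per kilobase of merged GENCODE M21 exons), were computed. Tests were two-sided quasi-likelihood F tests in edgeR 4.0.16 (R 4.3.3) after filterByExpr, on the whole table, with Benjamini-Hochberg adjustment over all genes tested and a threshold of 0.05. Group 1, group 2 (9 libraries in 1 fit) and both groups (12 libraries, with group of mice as a covariate) were fitted apart. The fits were tested on simulated data. Alternatives were DESeq2 1.42.0, its size factors, no filter, a mean CPM of at least 1, fits on the 6 libraries compared, a replicate block, and leaving out each library.

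In group 1 the deviations of same-numbered libraries had correlations of 0.441, 0.186 and 0.146. Unlike-numbered ones ran from -0.349 to 0.23, the highest for wildtype replicate 3 with mutant replicate 2. Only replicate 1 stood apart, so a pairing by number, which would come from the data and not the labels, is uncertain. The printed tests have no replicate term, and the blocked value is given where it changes a group 1 call. Within groups, no 2 libraries were as close as sampling noise allows (chi-square per degree of freedom of at least 20.1). Every member called in a comparison with wildtype is given with all its values, as is the highest member per length of each arm; the wider lists name at most 3 called genes each, by smallest p over both groups. Members, lists and tests were chosen with earlier results of these data known.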

Additional observations from a re-analysis of the deposited data

How the results depend on the processing

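Of 40 calls of a member in a comparison with wildtype, 36 were kept under every alternative that gave a value other than leaving out a library, 18 were also kept under every left-out library, and 0 changed sign. Lpcat2 in low-yield mutants, 1 of the 36, was not tested with a mean CPM of at least 1 or on the 6 libraries compared. The group 2 mutant count of 4 members became 8 with DESeq2 (Lpin1, Pcyt1a, Lpcat2 and Lpcat4 added; 1453 of 15024 genes against 942) and 7 with the replicate block (Lpin1, Ptdss2 and Lpcat4 added; 1309 of 15024 genes). The cause was not tested. In group 2 same-numbered wildtype and mutant libraries had correlations of 0.259, 0.15 and 0.0164, against up to 0.163 for unlike numbers. They also matched in Xist, which was high in replicates 1 and 3 (1029 to 1409 CPM) and low in replicate 2 (17.9 and 19.5 CPM). Same-numbered pairs with low-yield mutants had correlations of -0.0408 to 0.0854. The labels give these libraries only the same replicate number. The block gave 12 members in low-yield mutants (Agpat4 and Pcyt2 added, 2331 of 15024 genes against 1884). It gave 15 over both groups (3889 of 15954 genes against 3128) and 0 in each of the other comparisons. Leaving out 1 library gave 4 to 11 members in group 1, 2 to 6 in group 2 mutants, 2 to 12 in low-yield mutants and 12 to 17 over both groups, and 0 to 0 for low-yield mutants against mutants and for the difference between the groups of mice. A group left with 2 libraries is assumed to vary like the others. With 3 libraries a group, members near the threshold pass or fail with 1 library, and Lpcat2 rests on 0 to 35 counts per library in group 2.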
